A study of Homo sapiens with 4 samples.

Results

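The genes described here are 8 genes of cholesterol and fatty acid synthesis, SREBF1, SREBF2, INSIG1, HMGCS1, IDI1, FDFT1, SQLE and FASN, in paclitaxel-sensitive and paclitaxel-resistant cells of anaplastic thyroid cancer (ATC). They were chosen by gene name, as the SREBP transcription factors and their sterol and lipid synthesis targets, and are 8 of the 26485 gene names in the expression tables. Each was found in 1 row of each of the 4 tables.

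Transcription of these genes is governed by the sterol content of the endoplasmic reticulum. The SREBP proteins, encoded by SREBF1 and SREBF2, are made as membrane-bound precursors that SCAP escorts to the Golgi, where they are cut and a transcription factor is released to the nucleus. When sterols are plentiful, the INSIG proteins retain SCAP and its cargo in the endoplasmic reticulum. SREBP2 is best known for driving cholesterol synthesis and uptake, and SREBP1 for driving fatty acid synthesis.

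SW1736 and 8505C are established human ATC cell lines, and mRNA was measured by RNA sequencing in wt and PTX-resistant cells of each, with 1 library per condition and 4 in all. The resistant cells, SW1736-PTX and 8505C-PTX, were obtained from the parental lines over 6 months in paclitaxel, a drug that stabilises microtubules, at doses raised from 1 nM to 1.5 µM. All cells were grown in RPMI-1640 with L-glutamine and gentamicin. The wt cells were given 10% fetal bovine serum and no paclitaxel is listed for them, while the resistant cells were kept in 1.5 µM paclitaxel and a 10% supplement whose name is missing from their protocol. The presence of the drug, the acquired resistance and any difference in supplement cannot be told apart in these libraries. Each resistant line is a single selection, the sources used here do not say whether it is a clone or a pool, and no replicate culture was sequenced. Fold changes therefore describe pairs of libraries, without any measure of variation between cultures. In bulk RNA, fewer cells of a type and less RNA per cell cannot be told apart.

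Depth, estimated from coverage and FPKM, was between 43.5 and 57.9 M reads per library. Of 11 thyroid markers, 2 or 3 were above 0.5 FPKM in each library; TSHR, SLC5A5 and DUOX2 were at 0 in all 4 and TG was at most 0.00586 FPKM, so that the label is carried here by transcription factors only. The library labelled SW1736-PTX was more like the 8505C libraries than like SW1736 wt. PAX8 stood at 38.2 FPKM in SW1736 wt and at most 0.206 FPKM in the other 3 libraries, while NKX2-1 was at 0 in SW1736 wt and between 30.5 and 39.0 FPKM in the other 3. Of all genes compared, 25.9% differed beyond the call limit between SW1736-PTX and SW1736 wt, 20.4% between SW1736-PTX and 8505C wt, and 7.79% between both resistant libraries. Whether this bears on the genes below was not tested. The fold changes and calls of the 8 genes in SW1736-PTX, and the count of calls for each list, are given against both wt libraries. Counts and the fit taken over both lines pair SW1736-PTX with SW1736 wt only. Of 4 markers of adipocytes, cells rich in lipid synthesis, 0 were above 0.5 FPKM in any library, with ADIPOQ and LEP at 0 and summed levels from 0 to 0.667 FPKM. Some genes of the fibroblast, endothelial, epithelial and leukocyte lists also differed between wt and resistant libraries, while the rest of these lists stayed under 0.5 FPKM. PDGFRB, 1 of 4 fibroblast markers, was at 6.08 FPKM in SW1736-PTX and 6.49 FPKM in 8505C-PTX and at most 0.402 FPKM in wt cells. The other fibroblast markers, PDGFRA, DCN and LUM, were at most 0.274 FPKM in any library. CDH5, 1 of 3 endothelial markers, was at 0 in SW1736 wt, 0.225 FPKM in SW1736-PTX, 55.9 FPKM in 8505C wt and 4.53 FPKM in 8505C-PTX. It was thus lower, not higher, in the resistant cells of 8505C, and PECAM1 and VWF were at most 0.281 FPKM in any library. Of 4 epithelial markers, the keratin KRT18 was at 257 FPKM in SW1736 wt, 1437 FPKM in SW1736-PTX, 511 FPKM in 8505C wt and 1240 FPKM in 8505C-PTX, and KRT8 was higher in both resistant libraries too, while EPCAM and CDH1 were at most 0.0806 FPKM. CD68, a lysosomal protein and 1 of 4 leukocyte markers, was at 5.84 FPKM in SW1736 wt, 23.6 FPKM in SW1736-PTX, 21.7 FPKM in 8505C wt and 43.0 FPKM in 8505C-PTX, with CD3E and MS4A1 at 0 in all 4. The bearing of these marker differences on the results was not tested.

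The stretches upstream of 4 of the genes are shown first because they include both SREBP genes and 2 of their known targets, and because they differ in the boxes that SREBPs and their partner factors are known to use. They are RefSeq sequences on GRCh38.p14, read on the strand of the gene, for SREBF2 (chr22:41832855-41833078, plus strand), SREBF1 (chr17:17837012-17837236, minus strand), INSIG1 (chr7:155297628-155297775, plus strand) and HMGCS1 (chr5:43313513-43313662, minus strand). Each runs 5′ to 3′ from 250 bases before the RefSeq start and stops before the first base of the gene in the expression tables. Capitals mark matches, on either strand, to TCACNCCAC (a form of the sterol regulatory element), CCAAT (the NF-Y box) and GGGCGG (the Sp1 box).
SREBF2: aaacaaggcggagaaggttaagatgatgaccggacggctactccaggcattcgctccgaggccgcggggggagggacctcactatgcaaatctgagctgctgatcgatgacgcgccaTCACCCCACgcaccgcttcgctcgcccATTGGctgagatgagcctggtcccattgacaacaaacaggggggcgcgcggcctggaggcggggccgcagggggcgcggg
SREBF1: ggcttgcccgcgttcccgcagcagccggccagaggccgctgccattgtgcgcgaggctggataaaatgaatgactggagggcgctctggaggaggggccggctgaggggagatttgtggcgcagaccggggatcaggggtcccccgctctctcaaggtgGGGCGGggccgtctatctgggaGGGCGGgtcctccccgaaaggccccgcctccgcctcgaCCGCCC
INSIG1: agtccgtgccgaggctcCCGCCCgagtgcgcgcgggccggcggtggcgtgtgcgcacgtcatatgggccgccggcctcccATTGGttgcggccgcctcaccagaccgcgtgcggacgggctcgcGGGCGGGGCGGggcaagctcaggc
HMGCS1: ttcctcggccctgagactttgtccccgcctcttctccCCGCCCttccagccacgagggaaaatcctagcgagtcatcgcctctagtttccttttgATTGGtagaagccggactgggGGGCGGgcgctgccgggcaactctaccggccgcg
Over the whole window, from 250 bases before the start to 50 bases after it, the sterol regulatory element was matched in 1 of the 5 genes with an entry, SREBF2, whose match begins at position -133, counted back from -1 at the base before the start. It was found in 1.13% of all 35116 RefSeq windows of the same 300 bases. The NF-Y box was found in 4 of 5 genes, all but SREBF1, and in 34.6% of all windows. In SREBF2 it begins at position -106, on the strand opposite to the gene. The Sp1 box was found in 5 of 5 genes and in 45.0% of all windows, and 2 of its copies in INSIG1 share a base, so that they read as a single run of capitals. IDI1, the other gene with an entry, held the NF-Y box at 2 positions. The last pattern searched, the E-box CACGTG, was found in INSIG1 alone of the 5 genes and in 7.26% of all windows, outside the stretch shown. These matches are letters in a window, with no measurement of binding. Other forms of the sterol regulatory element, and bases outside the window, were not searched. Each gene was searched at 1 start, the one nearest the start of its row, so any other start, of SREBF1 for instance, was not searched. SQLE, FDFT1 and FASN are not shown.

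All 8 genes had higher FPKM (fragments scaled to gene length and library depth) in both PTX-resistant libraries than in both wt libraries. This held for 31.6% of the 14692 genes that exceeded 0.5 FPKM in any of the 4 libraries. Summed over the 8 genes, the level was 278 TPM (a measure scaled to the same total in every library) in SW1736 wt, 1419 TPM in SW1736-PTX, 632 TPM in 8505C wt and 1209 TPM in 8505C-PTX. The genes thus made up 0.0278%, 0.142%, 0.0632% and 0.121% of all TPM, in that order, and the lowest share belonged to SW1736 wt.

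**Figure D1:**
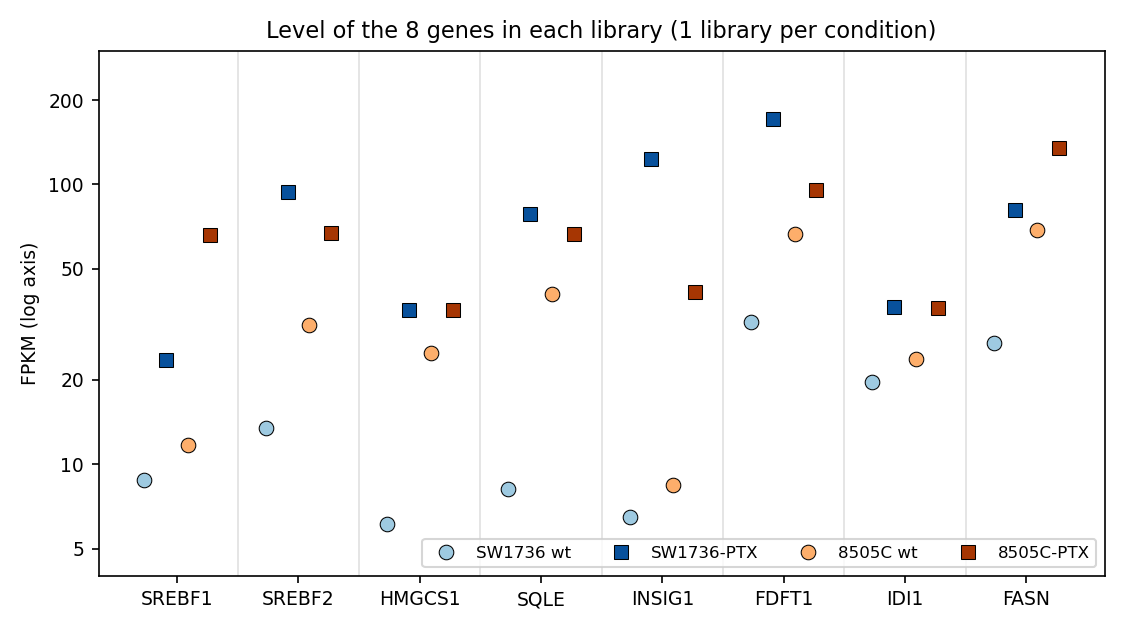
FPKM on a log axis of the 8 genes, with 1 point per library, circles for wt and squares for PTX-resistant cells. For every gene both squares lie above both circles, and SW1736 wt is lowest throughout, for example at 6.13 FPKM for HMGCS1.

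Fold changes are log2 of the ratio of FPKM after 0.1 was added to each value, and a gene was called up- or down-regulated beyond 1.5 or -1.5 on that scale if it exceeded 0.5 FPKM in at least 1 of the 2 libraries. In SW1736-PTX against SW1736 wt, 6 of the 8 genes were called up-regulated and 0 down-regulated, where 15.7% of 14202 genes were called up and 10.2% down. The median change of the 8 genes was 2.46 on the log2 scale, with a range from 0.89 to 4.23, beside 0.01 for all genes compared. In 8505C-PTX against 8505C wt, 2 of 8 genes, SREBF1 and INSIG1, were called up-regulated and 0 down-regulated, where 15.0% of 13794 genes were called up and 5.89% down. Their median there was 0.84, with a range from 0.51 to 2.48, beside 0.11 for all genes. Changes were above 0 for 8 of 8 genes in both lines, against 50.3% of all genes in SW1736 and 54.3% in 8505C. Over both lines together, with the cell line as a block and limma on log2 FPKM, a fit that leaves 1 residual degree of freedom and takes the SW1736-PTX label as given, the mean change of the 8 genes ran from 0.75 for IDI1 to 3.26 ± 0.54 (SE) for INSIG1 on the log2 scale. Adjusted over 14692 genes by Benjamini-Hochberg, 0 of the 8 genes passed a limma p of 0.05, with adjusted p between 0.119 for INSIG1 and 0.246 for IDI1, and 0.00% of all genes passed it upward. At an unadjusted limma p under 0.05, 7 of the 8 genes and 11.9% of all genes were higher. The SE and p of this fit reflect how far both lines disagreed, moderated over all genes, and not variation between cultures.

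Set against 8505C wt, the library labelled SW1736-PTX had 2 of 8 genes called up-regulated, SREBF2 and INSIG1, and 0 called down-regulated, where 15.1% of 13824 genes were called up and 5.23% down. The median was then 0.97, with a range from 0.24 to 3.85, beside 0.10 for all genes, and 8 of 8 genes were above 0 against 54.1% of all genes. Thus 4 of the 6 calls of SW1736-PTX, namely HMGCS1, SQLE, FDFT1 and FASN, were made against SW1736 wt but not against 8505C wt.

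**Figure D2:**
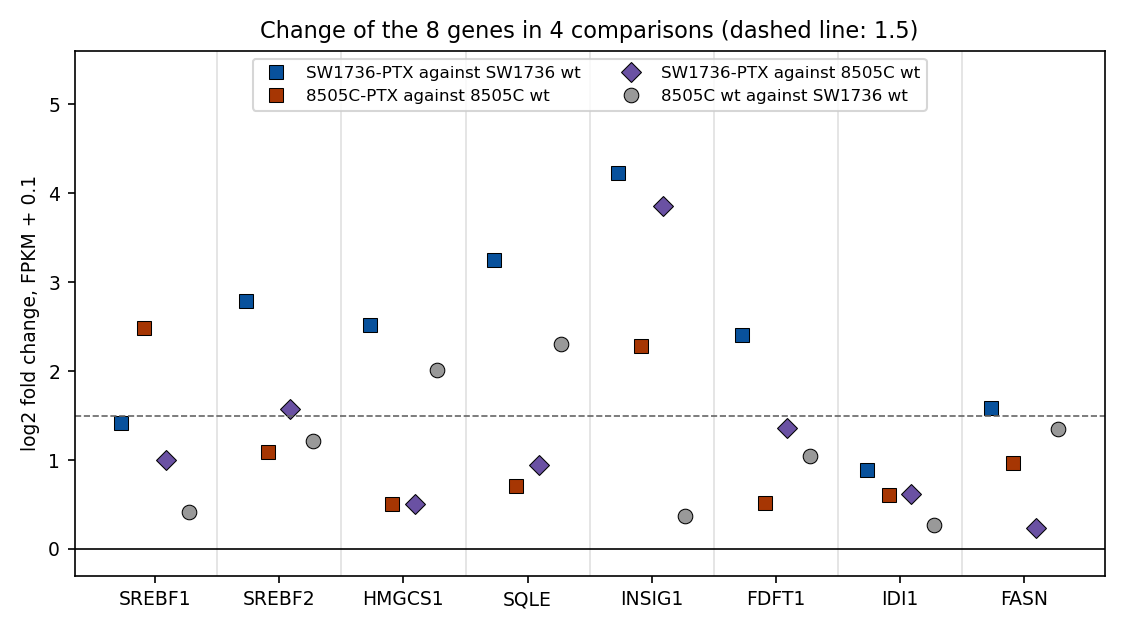
Log2 fold change, on FPKM with 0.1 added, of the 8 genes in 4 comparisons, with the call limit of 1.5 as a dashed line. INSIG1 alone lies above the limit for both squares and the diamond, while HMGCS1 and SQLE lie above it in 8505C wt against SW1736 wt.

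The wt libraries already differed. All 8 genes were higher in 8505C wt than in SW1736 wt, as were 45.7% of all genes compared. HMGCS1 and SQLE were called, at 2.01 and 2.30 on the log2 scale, which made 2 of 8 genes up-regulated and 0 down-regulated, where 7.73% of 13457 genes were called up and 9.92% down. The median over the 8 genes was 1.13, beside -0.08 for all genes. Between the resistant libraries, 8505C-PTX against SW1736-PTX, the median was -0.12 beside -0.01 for all genes, with 3 of 8 genes above 0. There, 0 of 8 genes were called up-regulated and 1, INSIG1, down-regulated at -1.57, where 3.70% of 13986 genes were called up and 4.09% down.

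SREBF1, which encodes SREBP1, lies on chromosome 17 from 17811349 to 17837011 of hg38, on the minus strand, with 19 exons in its MANE transcript. Its level was 8.76 FPKM in SW1736 wt, 23.5 FPKM in SW1736-PTX, 11.7 FPKM in 8505C wt and 65.8 FPKM in 8505C-PTX. The 8505C-PTX library stood highest, and the wt libraries lay 0.41 apart on the log2 scale. The log2 fold change was 2.48 in 8505C, the largest of the 8 genes in that line, and 1.41 in SW1736, just under the call limit, or 1.00 against 8505C wt. Its row overlaps that of RAI1, on the other strand, by 103 bases, and RAI1 ranged only from 13.8 to 23.4 FPKM.

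SREBF2, which encodes SREBP2, maps to chromosome 22, plus strand, between positions 41833079 and 41907308, also with 19 exons. Its level was 13.5 FPKM in SW1736 wt, 93.9 FPKM in SW1736-PTX, 31.5 FPKM in 8505C wt and 67.3 FPKM in 8505C-PTX. Here SW1736-PTX stood highest, in contrast with SREBF1. SREBF2 was called up-regulated in SW1736-PTX both against SW1736 wt, at 2.79 on the log2 scale, and against 8505C wt, at 1.57; in 8505C the value was 1.09, under the limit. Dividing SREBF2 by SREBF1 in FPKM gave 1.54 for SW1736 wt, 4.001 for SW1736-PTX, 2.70 for 8505C wt and 1.02 for 8505C-PTX. The balance between both factor genes therefore lay further toward SREBF2 in SW1736-PTX than in SW1736 wt and further toward SREBF1 in 8505C-PTX than in 8505C wt. MIR33A, a microRNA hosted within SREBF2, was at 0 FPKM in all 4 libraries, which were made from polyadenylated RNA.

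INSIG1, which encodes a sterol-sensitive retention protein for SCAP and is itself an SREBP target, lies on chromosome 7 from 155297776 to 155310235. It was at 6.46 FPKM in SW1736 wt, 123 FPKM in SW1736-PTX, 8.41 FPKM in 8505C wt and 41.4 FPKM in 8505C-PTX. Both wt libraries were low and both resistant ones high, and SW1736-PTX stood above 8505C-PTX. INSIG1 rose by 4.23 on the log2 scale in SW1736-PTX against SW1736 wt, by 3.85 against 8505C wt and by 2.29 in 8505C-PTX against 8505C wt. It ranked 535 of 14202 genes by increase in SW1736 and 1122 of 13794 in 8505C. Its paralogue INSIG2, which encodes the related retention protein, was between 5.17 and 8.14 FPKM in all 4 libraries, so that INSIG1 divided by INSIG2 came to 0.845 for SW1736 wt, 15.2 for SW1736-PTX, 1.63 for 8505C wt and 5.09 for 8505C-PTX.

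HMGCS1, which encodes the cytosolic synthase of HMG-CoA at the entry to the mevalonate pathway, maps to chromosome 5, minus strand, between positions 43287470 and 43313512. It was at 6.13 FPKM in SW1736 wt, 35.6 FPKM in SW1736-PTX, 25.0 FPKM in 8505C wt and 35.6 FPKM in 8505C-PTX. Both resistant libraries stood at the same level, and SW1736 wt lay apart from the other 3. HMGCS1 rose by 2.52 on the log2 scale in SW1736-PTX against SW1736 wt. Its value was 0.51 for SW1736-PTX against 8505C wt and 0.51 in 8505C-PTX against 8505C wt.

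IDI1, which encodes the isomerase of the isoprenoid building blocks, maps to chromosome 10, minus strand, between positions 1040024 and 1049121. Its level was 19.6 FPKM in SW1736 wt, 36.5 FPKM in SW1736-PTX, 23.7 FPKM in 8505C wt and 36.2 FPKM in 8505C-PTX. The resistant libraries were again alike, and IDI1 had the narrowest range of the 8 genes. It was not called in any of the comparisons, with log2 values of 0.89 in SW1736, 0.61 in 8505C and 0.62 for SW1736-PTX against 8505C wt. The antisense gene IDI2-AS1, which overlaps it, was at most 0.485 FPKM.

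FDFT1, which encodes squalene synthase, the first enzyme committed to sterols, maps to chromosome 8, plus strand, between positions 11795573 and 11839309. It was at 32.1 FPKM in SW1736 wt, 171 FPKM in SW1736-PTX, 66.5 FPKM in 8505C wt and 95.2 FPKM in 8505C-PTX, the highest of the 8 genes in both SW1736 libraries. FDFT1 rose by 2.41 on the log2 scale in SW1736-PTX against SW1736 wt, and its value was 1.36 against 8505C wt and 0.52 in 8505C-PTX against 8505C wt.

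SQLE, which encodes squalene epoxidase, a rate-limiting and oxygen-dependent step of cholesterol synthesis, lies on the same chromosome from 124998478 to 125022283. Its level was 8.16 FPKM in SW1736 wt, 78.6 FPKM in SW1736-PTX, 40.7 FPKM in 8505C wt and 66.7 FPKM in 8505C-PTX. SW1736 wt was far below the other 3 libraries. SQLE rose by 3.25 on the log2 scale, 9.62-fold in FPKM, in SW1736-PTX against SW1736 wt; the value was 0.95 against 8505C wt and 0.71 in 8505C-PTX against 8505C wt.

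FASN, the multi-domain synthase that builds palmitate, maps to chromosome 17, minus strand, between positions 82078338 and 82098230, with 43 exons. It was at 27.0 FPKM in SW1736 wt, 81.2 FPKM in SW1736-PTX, 68.8 FPKM in 8505C wt and 135 FPKM in 8505C-PTX, the highest of the 8 genes in both 8505C libraries. SW1736-PTX was near 8505C wt. FASN passed the limit narrowly in SW1736, at 1.58 on the log2 scale, and was at 0.24 against 8505C wt and 0.97 in 8505C. FASN and SREBF1 were highest in 8505C-PTX, SREBF2, INSIG1, SQLE and FDFT1 in SW1736-PTX, and HMGCS1 and IDI1 were alike in both. For SQLE the value of 8505C-PTX against SW1736-PTX was only -0.24 on the log2 scale. Of the 22 cholesterol synthesis genes listed below, 8 were higher in 8505C-PTX than in SW1736-PTX, TM7SF2 and SC5D among them. HMGCS1, counted among these, was level at 0.0005 on the log2 scale. The median of the 22 genes was -0.10, beside -0.01 for all genes. The order of the resistant libraries thus differed between these genes, as it did among all genes, whose median was near 0. With 1 library each, this order has no measured spread.

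**Figure D3:**
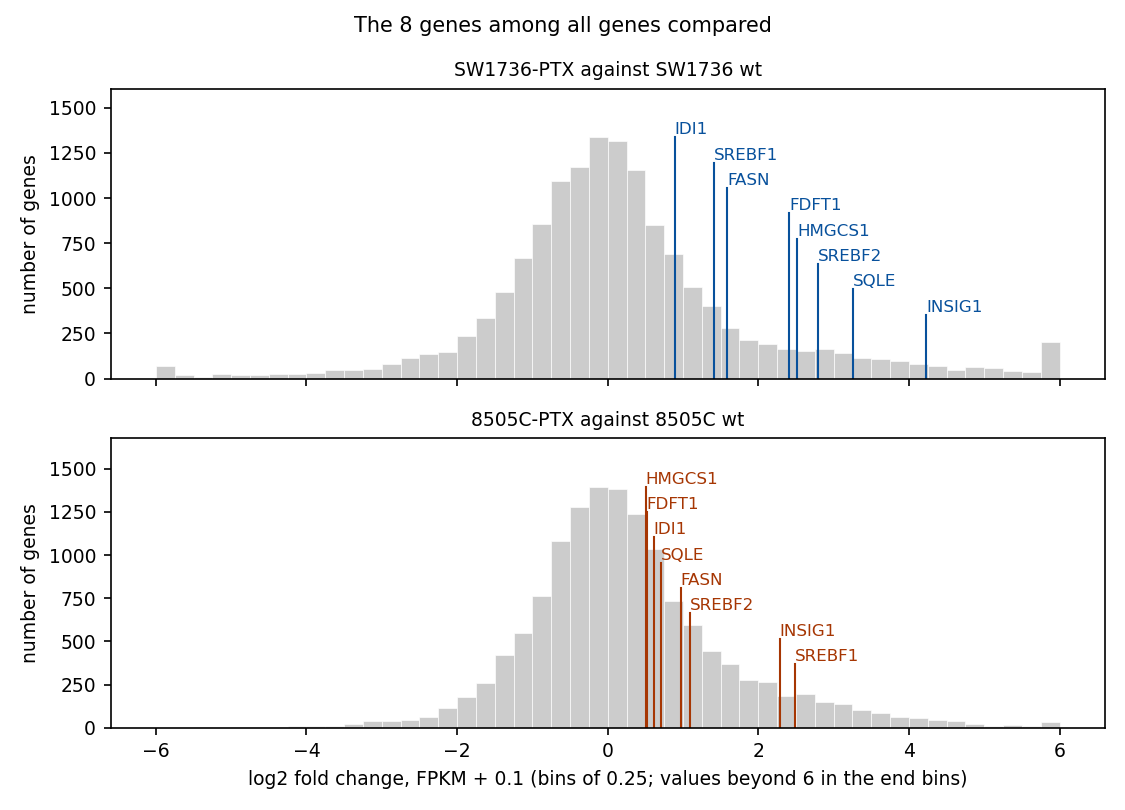
Number of genes by log2 fold change in bins of 0.25 for all genes compared in each line, with the 8 genes as lines. In SW1736 the lines run from IDI1 at 0.89 to INSIG1 at 4.23, and in 8505C 6 of the 8 lie between 0.51 and 1.09.

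The wider pathway was examined in 7 lists of 112 genes that hold the 8 genes. In SW1736-PTX against SW1736 wt, 32 of 102 listed genes compared were called up-regulated and 6 down-regulated, with a median of 0.70 on the log2 scale. In 8505C-PTX, 17 of 97 were called up-regulated and 1 down-regulated, with a median of 0.60. For SW1736-PTX against 8505C wt these counts were 19 and 3 of 100, with a median of 0.63. Without the 8 genes, 26 of 94 were up-regulated in SW1736, 15 of 89 in 8505C and 17 of 92 in SW1736-PTX against 8505C wt. These shares are to be read against the 15.7%, 15.0% and 15.1% of all genes given above. Of 96 listed genes compared in both lines, 68 (70.8%) were higher in both resistant libraries than in their wt, against 37.6% of the 13304 genes compared in both lines, and 10 (10.4%) were called up-regulated in both, against 7.37%: INSIG1, TM7SF2, SCD, FADS1, FADS2, FADS3, ELOVL3, GRAMD1C, MYLIP and ABCG1. Of these 10, ELOVL3 was under 0.5 FPKM in both wt libraries, and ABCG1 was at 0.198 FPKM in 8505C wt. In those comparisons they passed the minimum only through the resistant library, and their fold changes depend on the 0.1 FPKM added.

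In the SREBP processing list, 3 of 16 genes were called up-regulated in SW1736 (SREBF2, INSIG1 and SEC24D) and 2 of 16 in 8505C (SREBF1 and INSIG1). SCAP, the escort and sterol sensor of the SREBPs, was at 23.2 FPKM in SW1736 wt, 22.8 FPKM in SW1736-PTX, 21.7 FPKM in 8505C wt and 23.6 FPKM in 8505C-PTX, with log2 values of -0.03 and 0.12. SEC24D, a coat protein of the vesicles that leave the endoplasmic reticulum, was at 10.6 FPKM and 31.5 FPKM in SW1736 wt and SW1736-PTX and at 14.4 FPKM and 22.0 FPKM in 8505C wt and 8505C-PTX. The list median was 0.26 in SW1736 and 0.50 in 8505C, and its shares of calls lay near those of all genes. Against 8505C wt, SW1736-PTX had 2 of 16 called up-regulated, SREBF2 and INSIG1.

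Of the 10 genes of the mevalonate steps to squalene, 10 were higher in SW1736-PTX than in SW1736 wt and 9 than in 8505C wt. In 8505C-PTX, 9 were higher than in 8505C wt. Of all genes, 50.3%, 54.1% and 54.3% were higher, in that order. Called up-regulated were 3 of 10 in SW1736, HMGCS1 and FDFT1 among them, and 0 in 8505C, where 15.7% and 15.0% of all genes were. The list median was 0.82 in SW1736, 0.58 in 8505C and 0.67 for SW1736-PTX against 8505C wt, where 0 of 10 were called.

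Of the 12 genes of the sterol steps after squalene, SW1736 had 5 called up-regulated and 1 down-regulated, and 8505C had 2 and 0. Of all genes, 15.7% were called up in SW1736, 15.0% in 8505C and 15.1% in SW1736-PTX against 8505C wt. The 2 of 12 in 8505C lay near that share. Against 8505C wt, SW1736-PTX had 3 called up-regulated, CYP51A1 at 2.70, MSMO1 at 1.88 and TM7SF2 at 2.01 on the log2 scale, and LBR called down-regulated at -1.72. CYP51A1, the lanosterol demethylase, was at 17.5 FPKM in SW1736 wt, 146 FPKM in SW1736-PTX, 22.5 FPKM in 8505C wt and 53.7 FPKM in 8505C-PTX. MSMO1, a methyl sterol oxidase that acts later in the pathway, had 6.45, 57.7, 15.6 and 43.5 FPKM in those libraries. Both were called in SW1736, at 3.06 and 3.14 on the log2 scale, and fell short of the limit in 8505C, at 1.25 and 1.47. TM7SF2 and LBR encode enzymes with the same sterol reductase activity, and in SW1736 they were called in opposite directions. TM7SF2 was at 1.83 FPKM in SW1736 wt, 16.3 FPKM in SW1736-PTX, 3.97 FPKM in 8505C wt and 46.8 FPKM in 8505C-PTX, and was called up-regulated in both lines at 3.09 and 3.53. LBR, which also anchors chromatin to the nuclear envelope, was at 24.0, 6.47, 21.5 and 11.4 FPKM in that order and was called down-regulated in SW1736 at -1.88, with -0.90 in 8505C.

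**Figure D4:**
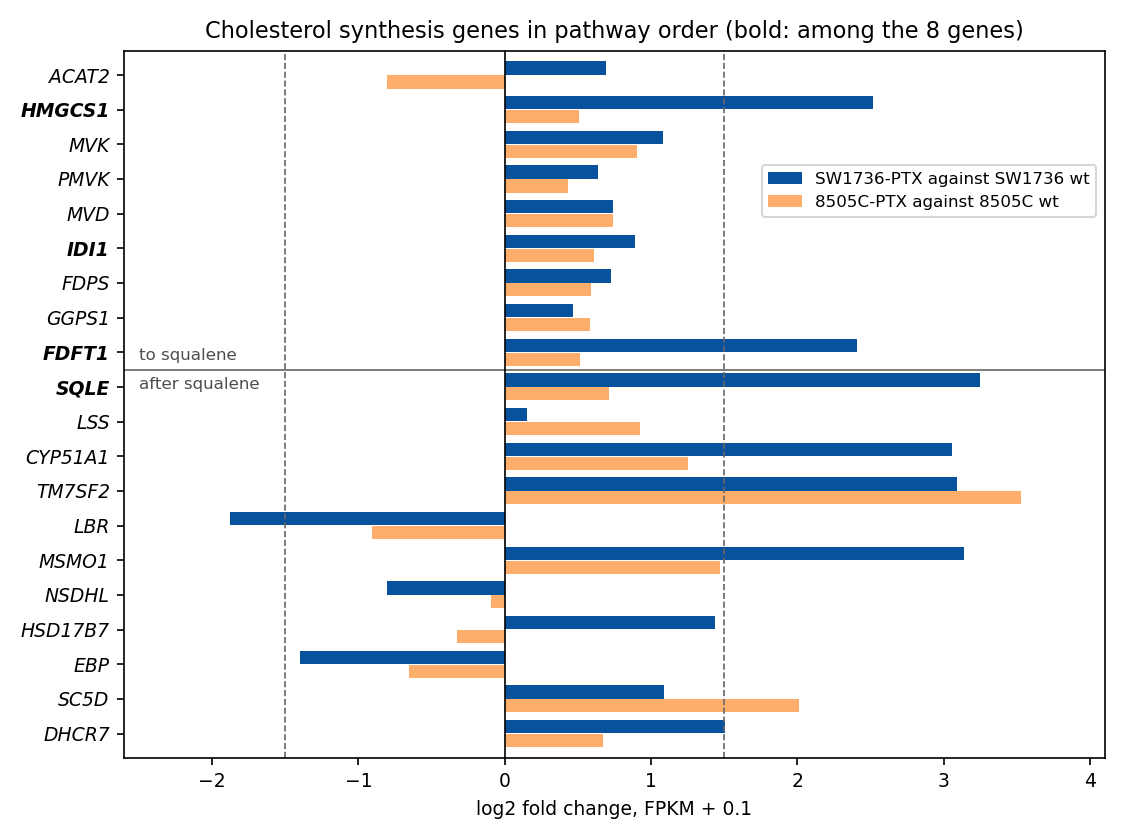
Log2 fold change, on FPKM with 0.1 added, of 20 of the 22 listed genes of cholesterol synthesis and its branch to longer isoprenoids (2 genes, 1 of them called up-regulated in SW1736, are not shown) in pathway order, for SW1736 in blue and 8505C in orange, with limits of 1.5 and -1.5 dashed. In SW1736, 7 bars pass the upper limit and 1, LBR, the lower one, while in 8505C only TM7SF2 and SC5D pass it.

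Of the fatty acid genes, SW1736 had 9 of 28 called up-regulated and 1 down-regulated, 8505C had 7 of 26 and 0, and SW1736-PTX against 8505C wt had 7 of 27 and 0. The shares of all genes called up were 15.7%, 15.0% and 15.1%, in that order. SCD, the desaturase that makes oleate, was at 54.1 FPKM in SW1736 wt, 262 FPKM in SW1736-PTX, 91.5 FPKM in 8505C wt and 819 FPKM in 8505C-PTX. It rose by 2.28 on the log2 scale in SW1736 and by 3.16 in 8505C, and by 1.52 in SW1736-PTX against 8505C wt. FASN, which supplies its substrate, thus had smaller values than SCD in both lines, and the ratio of FASN to SCD was 0.499, 0.309, 0.752 and 0.164 in the library order above. FADS1, a desaturase of polyunsaturated fatty acids, was at 17.5 FPKM in SW1736 wt, 138 FPKM in SW1736-PTX, 32.8 FPKM in 8505C wt and 149 FPKM in 8505C-PTX. The adjacent FADS2, whose row shares 855 bases with it on the other strand, was called up-regulated too, at 1.98 and 2.47. Against 8505C wt, SW1736-PTX stood at 2.07 for FADS1 and 1.88 for FADS2. ELOVL3, an elongase, was at 0 in SW1736 wt, 1.05 FPKM in SW1736-PTX, 0.0833 FPKM in 8505C wt and 0.714 FPKM in 8505C-PTX. ELOVL2, an elongase of polyunsaturated fatty acids, was the gene called down-regulated, with 8.57 FPKM in SW1736 wt and at most 0.0791 FPKM in the other 3 libraries. ACLY and ACACA, which supply acetyl-CoA and malonyl-CoA to FASN, were not called in either line, with log2 values of 0.80 and 0.67 in SW1736 and 0.03 and 0.23 in 8505C.

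Of the uptake and transport genes, SW1736 had 7 of 15 called up-regulated and 1 down-regulated, 8505C had 3 of 14 and 0, and SW1736-PTX against 8505C wt also had 3 of 14 and 0. Among all genes the shares called up were 15.7%, 15.0% and 15.1%, in that order. GRAMD1C, a sterol transfer protein of the endoplasmic reticulum, was at 0.865 FPKM in SW1736 wt, 7.52 FPKM in SW1736-PTX, 1.77 FPKM in 8505C wt and 9.91 FPKM in 8505C-PTX, and rose by 2.98 and 2.42 on the log2 scale, or by 2.02 for SW1736-PTX against 8505C wt. STARD4, a carrier of cholesterol between membranes, was at 0.309 FPKM in SW1736 wt, 15.2 FPKM in SW1736-PTX, 6.92 FPKM in 8505C wt and 19.2 FPKM in 8505C-PTX. As with SQLE, SW1736 wt was far below the other 3 libraries. The log2 value was 5.22 in SW1736 but 1.12 for SW1736-PTX against 8505C wt and 1.46 in 8505C. In SW1736, STARD4 passed the minimum only through SW1736-PTX, so its value of 5.22 depends on the 0.1 FPKM added.

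**Figure D5:**
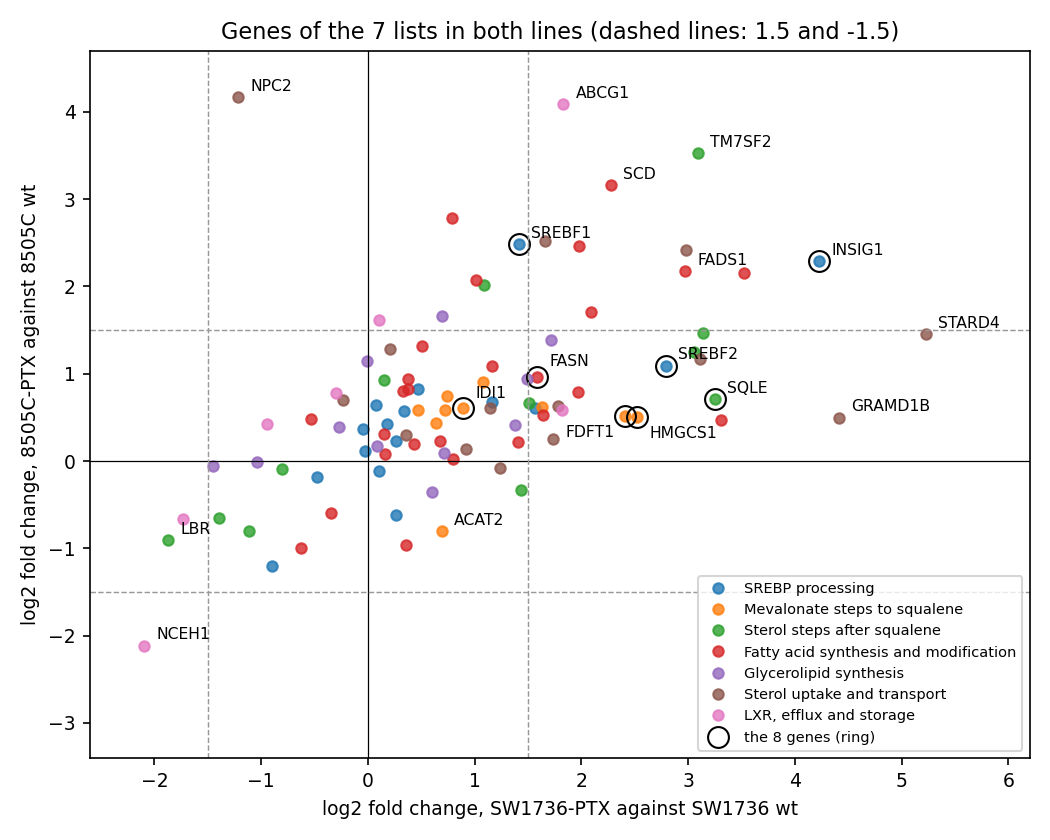
Log2 fold change in 8505C against that in SW1736 for the 96 listed genes compared in both lines, coloured by list, with the 8 genes ringed and limits of 1.5 and -1.5 dashed. INSIG1 is the only ringed gene past the limit in both lines, and 5 ringed genes pass it in SW1736 alone.

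Across all genes above 0.5 FPKM in all 4 libraries, those nearest to the median profile of the 8 genes over the 4 libraries, by Euclidean distance between centred log2 levels, were ZNF397, EFNA5, PRDX5, SCARB2 and ABTB1 of 11205 genes. ZNF397, a zinc finger protein, was nearest, at a distance of 0.0707, with 1.14 FPKM in SW1736 wt, 6.12 FPKM in SW1736-PTX, 2.87 FPKM in 8505C wt and 5.79 FPKM in 8505C-PTX. Of the 8 genes themselves, SREBF2 lay nearest to their common median, at a distance of 0.347, and INSIG1 farthest, at 1.95. None of these 5 nearest genes is in the 7 lists.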

How the data were processed

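RNA libraries of SW1736 wt, SW1736-PTX, 8505C wt and 8505C-PTX (1 per condition) were prepared by the authors with a poly(A) kit. Per the paper's methods, single-end 75-base reads were trimmed with Cutadapt and ERNE, aligned to hg38 with STAR and quantified per gene with StringTie. The submitters' processing notes name bcl2fastq 2.20; the annotation and the versions of STAR, ERNE and StringTie are not given in the sources used here. The deposited tables hold, per gene, the mean coverage per base, FPKM and TPM as StringTie gave them to the authors, and no read counts. Depth was derived from coverage over FPKM and read length.

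Rows of the same gene name were summed. Log2((A + 0.1)/(B + 0.1)) of FPKM was computed for genes above 0.5 FPKM in at least 1 library of a pair and called beyond 1.5 or -1.5, the study's limits. With 1 library per condition, a comparison within a line has no test; over both lines, limma 3.58.1 (R 4.3.3) was fitted to log2(FPKM + 0.1) with the cell line as a block, an alternative chosen after seeing the data. From the approximate reads per gene, between 920 and 61001 for the 8 genes, the 95% counting error of a log2 fold change was at most 0.13, which covers counting error only. The genes and lists were chosen with earlier results of these data known. Named were the 8 genes; SCD and SCAP; up to 4 genes per list called in the same direction in both lines and the largest change per list, line and direction; and the 5 nearest profiles. Some genes of the rule are counted in their lists but are not reported here. Other genes named (INSIG2, SEC24D, CYP51A1, MSMO1, SC5D, ACLY, ACACA, FADS3, SOAT1, LPIN1 and ACAT2) were chosen after their values were seen. Transcript lengths and exons came from GENCODE release 44. Alternatives changed the pseudocount, minimum, limit, unit (TPM), centring and handling of repeated names. The code was tested on simulated data. Python 3.11.15, NumPy 2.4.6, pandas 2.3.3, SciPy 1.17.1 and matplotlib 3.10.9 were used.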

Additional observations from a re-analysis of the deposited data

Results flagged for a closer look

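Among the 96 listed genes compared in both lines, 2 stood more than 0.5 above 0 on the log2 scale in 1 line and more than 0.5 below it in the other, and the difference between lines was not tested since each line has 1 library per condition. ACAT2, the cytosolic thiolase that begins the mevalonate steps, was at 26.7 FPKM in SW1736 wt, 43.1 FPKM in SW1736-PTX, 53.5 FPKM in 8505C wt and 30.5 FPKM in 8505C-PTX. Its log2 fold change was 0.69 in SW1736 and -0.81 in 8505C, neither of which passed the limit of 1.5. NPC2, the lysosomal protein that hands cholesterol to NPC1, was at 105 FPKM in SW1736 wt, 45.0 FPKM in SW1736-PTX, 8.34 FPKM in 8505C wt and 152 FPKM in 8505C-PTX. Its log2 fold change was -1.22 in SW1736 and 4.17 in 8505C, of which the second passed the limit. Against 8505C wt, SW1736-PTX stood at -0.31 for ACAT2 and at 2.42 for NPC2. None of the 8 genes differed in direction between the lines.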

How the results depend on the processing

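All 112 values of the 8 genes in the wt-to-PTX comparisons of both lines under other pseudocounts, minimums, units, centring and handling of repeated names kept their sign, and the largest move was 0.17 on the log2 scale. With a pseudocount of 1, the median of the 8 genes in SW1736 was 2.37. With a limit of 2, listed calls were 23 instead of 38 in SW1736, 9 instead of 14 between the wt libraries, 0 instead of 8 between the resistant ones and 13 instead of 22 for SW1736-PTX against 8505C wt, and calls among the 8 genes were 0 instead of 1 and 1 instead of 2 in the last 2 comparisons. With a limit of 1, listed calls were 31 instead of 18 in 8505C, 28 between the wt libraries, 15 between the resistant ones and 37 for SW1736-PTX against 8505C wt, with 5, 2 and 4 of the 8 genes called in the last 3. Of all genes, 22.5% were above 1 in 8505C, 11.7% between the wt libraries and 7.21% between the resistant ones. For SW1736-PTX against 8505C wt the share was 22.3%. Below -1 were 1784 of 13794, 2257 of 13457, 1058 of 13986 and 1601 of 13824 genes, in that order. At a limit of 2, 1740 of 14202 genes were up and 875 down in SW1736. Between the wt libraries the counts were 826 and 915, and between the resistant ones 332 and 336. For SW1736-PTX against 8505C wt they were 1456 and 341. Requiring 0.5 FPKM in both libraries gave 30 listed calls instead of 38 in SW1736 and 16 instead of 18 in 8505C. The same minimum gave 9 between the wt libraries and 5 between the resistant ones, and a pseudocount of 1 gave 3 between the resistant ones. Of 315 counts for single lists, 60 moved by more than 1.5 times. No library can be left out, since each condition has 1. A fit over both lines with the cell line as a block, chosen after seeing the data, called 0 of the 8 genes at an adjusted limma p of 0.05, where 1 was past the fold limit in both lines. Depth did not limit the 8 genes, but variation between cultures was not measured.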

Other observations

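Genes of sterol efflux and storage were called in both directions: SW1736 had 3 of 9 listed genes called up-regulated and 3 down-regulated, 8505C had 2 of 8 and 1, and SW1736-PTX against 8505C wt had 2 of 9 and 2. Of all genes, 15.7% were called up and 10.2% down in SW1736, and 15.0% and 5.89% in 8505C. For SW1736-PTX against 8505C wt these shares were 15.1% and 5.23%. ABCG1, a sterol exporter controlled by the LXR receptors, was at 0.568 FPKM in SW1736 wt, 2.28 FPKM in SW1736-PTX, 0.198 FPKM in 8505C wt and 4.96 FPKM in 8505C-PTX, and was called up-regulated in both lines at 1.83 and 4.09, with 3.00 for SW1736-PTX against 8505C wt. ABCA1, the other main exporter, was at 6.90 FPKM in SW1736 wt and at most 0.0120 FPKM in the other 3 libraries, a pattern shared with the thyroid factor PAX8. ABCG4, a relative of ABCG1, was at 0.168 FPKM in SW1736 wt and 1.00 FPKM in SW1736-PTX. In 8505C wt and 8505C-PTX it was at 0.0718 and 0.371 FPKM. ABCG4 was called up-regulated in SW1736 at 2.04, where it passed the minimum only through SW1736-PTX. That value depends on the 0.1 FPKM added, and with a pseudocount of 1 this list had 2 calls in SW1736 instead of 6. NCEH1, which hydrolyses stored cholesteryl esters, was at 49.0 FPKM in SW1736 wt, 11.4 FPKM in SW1736-PTX, 37.2 FPKM in 8505C wt and 8.52 FPKM in 8505C-PTX, and was called down-regulated in both lines at -2.10 and -2.11, with -1.70 for SW1736-PTX against 8505C wt. SOAT1, which makes those esters, had 10.2, 3.02, 9.12 and 5.70 FPKM in those libraries and was called down-regulated in SW1736 at -1.73. MYLIP, a ubiquitin ligase induced by LXR, was at 3.58 FPKM in SW1736 wt, 11.5 FPKM in SW1736-PTX, 2.202 FPKM in 8505C wt and 13.1 FPKM in 8505C-PTX, and was called up-regulated in both lines at 1.66 and 2.52.

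Of the listed genes of glycerolipid synthesis, 2 of 12 were called up-regulated in SW1736, 1 of 11 in 8505C and 2 of 12 in SW1736-PTX against 8505C wt. The shares of all genes called up in these comparisons were 15.7%, 15.0% and 15.1%, near those of this list. LPIN1, a phosphatidate phosphatase, was at 8.06 FPKM in SW1736 wt, 26.6 FPKM in SW1736-PTX, 10.6 FPKM in 8505C wt and 27.8 FPKM in 8505C-PTX; its log2 fold change was 1.71 in SW1736 and 1.39 in 8505C. LPIN3, its relative, was at 5.05 FPKM in SW1736 wt, 8.20 FPKM in SW1736-PTX, 2.12 FPKM in 8505C wt and 6.93 FPKM in 8505C-PTX, and was called up-regulated in 8505C at 1.66. PNPLA3, a lipid-droplet protein and SREBP1 target, was low, at 0.143 FPKM in SW1736 wt and 1.07 FPKM in SW1736-PTX. In 8505C wt and 8505C-PTX it was at 0 and 0.255 FPKM. PNPLA3 was called up-regulated in SW1736 at 2.27. It passed the minimum there only through SW1736-PTX, so that value depends on the 0.1 FPKM added.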
